A study of Mus musculus with 6 samples.

Results

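The clustered protocadherins are neuronal adhesion proteins encoded side by side in an alpha, a beta and a gamma cluster on chromosome 18 of the mouse. Their mRNAs were read from RNA-seq of the neocortex as rows named *Pcdha*, *Pcdhb*, *Pcdhga*, *Pcdhgb* or *Pcdhgc* on that chromosome. This gave 56 of the 13299 rows, with 14 in the alpha, 21 in the beta and 21 in the gamma cluster. The study asked how loss of HuD, a neuronal RNA-binding protein, alters cortical transcripts. It compared 3 HuD KO mice (*Elavl4*-/-) with 3 controls, which were wildtype littermates, 1 library per mouse. All were adult C57BL/6 males of about 3 to 4 months. In the HuD KO allele, exon 2 of *Elavl4* is replaced by a PGK-Neo vector in every tissue, so that HuD is missing throughout development as well as in the adult.

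Each neuron expresses only some of the clustered isoforms, which it picks by the choice of alternative promoters under the control of CTCF, cohesin and DNA methylation. The proteins bind like with like between membranes, so that the processes of a neuron recognise and avoid each other. In the alpha and gamma clusters a variable exon, which encodes the extracellular part, is spliced to constant exons that all isoforms of the cluster share, whereas beta genes lack constant exons. The last members of the alpha and gamma clusters, called C-type, are expressed more uniformly between neurons than the others.

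The architecture of the clusters shaped how they could be read. In the mm10 coordinates of the table, the alpha models lay between 36930184 and 37187661 on chromosome 18, the beta models between 37294812 and 37524479, and the gamma models between 37661793 and 37841873. The loci of all 56 rows equalled those of GENCODE release M21. An alpha model shared a median of 53.4% of its exonic bases with other members, and a gamma model 44.6%. In the beta cluster, only *Pcdhb21* and *Pcdhb22* shared bases (455). Of the 14 alpha models 12 ended at the same base, and *Pcdha1* and *Pcdha4* ended 4 bases later. Of the 21 gamma models 17 ended at 37841873, and *Pcdhga2*, *Pcdhgb1*, *Pcdhgb4* and *Pcdhga9* ended 3 bases earlier. The sources used here do not give how reads in the shared exons were divided between models, so levels of single alpha and gamma members are uncertain. 2 rows carried the name *Pcdha11*. The upstream row starts 117 bases from the start of RefSeq *Pcdha10*, and the downstream row 146 bases from that of RefSeq *Pcdha11*.

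Levels are given in FPKM, the fragments of a gene scaled by its length and by the fragments mapped in the library. Genotypes were compared on log2(FPKM + 1) with limma in a fit across all genes, with p-values adjusted by the Benjamini-Hochberg method and a threshold of 0.05. HuD KO replicate 2 was left out of the main comparison, as it was by the study, and was added back in a second fit. Log2 fold changes are differences of the genotype means on this scale, HuD KO minus control. The scale understates relative differences, most of all those of genes near or under 1 FPKM. The file holds no counts, so the depth behind each value is unknown.

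*Elavl4* itself was at 34.2, 30.4 and 28.3 FPKM in control replicates 1 to 3 and at 1.70, 1.07 and 1.52 FPKM in HuD KO replicates 1 to 3. Its log2 fold change was -3.61 (adjusted p = 0.000687, limma), as the labels imply. All 8 markers of cortical excitatory neurons were found, and their FPKM summed to 482 to 583 in controls and 639 to 732 in HuD KOs. The 7 markers of meningeal fibroblasts summed to 20.5 to 33.0 FPKM in controls, against 13.04 to 16.2 FPKM in HuD KOs, and 4 of the 7 were lower at an unadjusted p under 0.05, beside 1.81% of all genes tested. The 8 astrocyte markers summed to 415 to 449 FPKM in controls, against 352 to 411 FPKM in HuD KOs, and the 6 markers of endothelium and pericytes to 93.2 to 113 and 86.8 to 90.3 FPKM. The sums of these 4 lists did not overlap between genotypes. Those of interneurons, oligodendrocytes and microglia did. Some libraries also held markers of neighbouring regions. The 6 striatal markers summed to 179 FPKM in control replicate 3 and 163 for HuD KO replicate 1, beside 39.6 to 85.7 in the other libraries. The 3 choroid plexus markers found summed to 295, 160 and 87.9 FPKM in control replicate 3 and HuD KO replicates 1 and 3, beside 2.31 to 5.56 in the rest. The 6 hypothalamic peptide genes summed to 279 FPKM in control replicate 3 and to 3.50 or less elsewhere, and 5 of the 6 were listed at 0 in at least 1 library. The part of these cell types in the protocadherin values was not tested. In bulk tissue, fewer cells of a type and less RNA per cell cannot be told apart.

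Taken row by row, most clustered protocadherins were low in the adult neocortex. For alpha and gamma rows this depends on how reads in the shared exons were divided, which is unknown. The median of their mean levels over 6 libraries was 0.988 FPKM in the alpha, 1.32 FPKM in the beta and 2.75 FPKM in the gamma cluster, beside 5.90 FPKM over the 13114 genes whose mean reached 0.5 FPKM. A mean of at least 1 FPKM was reached by 43 of the 56, of which 7 were alpha, 16 beta and 20 gamma genes. As a description of how alike the libraries were, ranks of the 14 alpha levels correlated between pairs of libraries with a median Spearman rho of 0.77, and those of the 21 beta levels with 0.83. Ranks of the 21 gamma levels correlated with 0.56, and those of the 17 gamma models with the common end with 0.83.

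**Figure D1:**
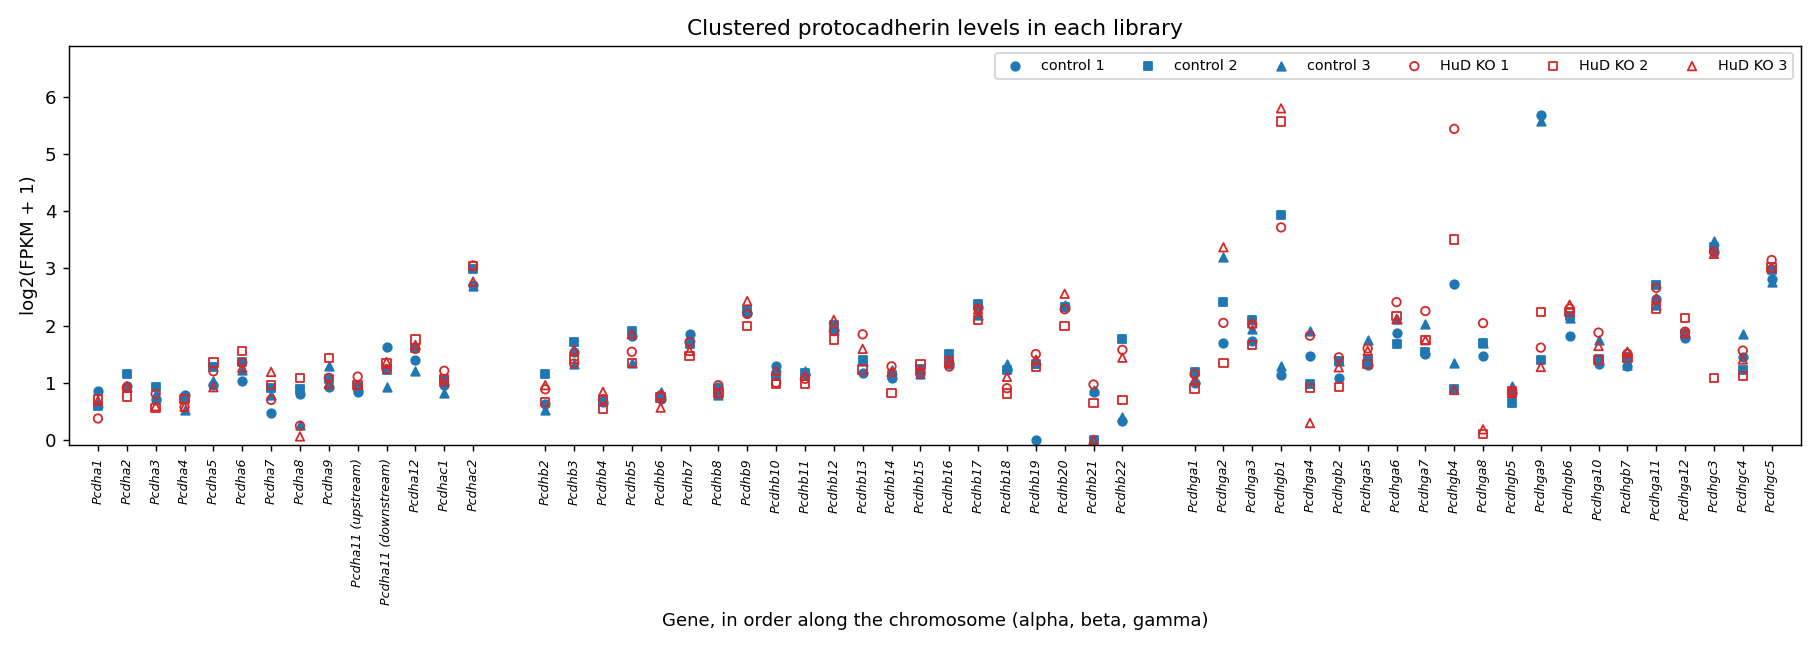
Level of each of the 56 members, as log2(FPKM + 1), in 3 control (filled) and 3 HuD KO (open) libraries, with genes in chromosomal order. The 6 libraries lie close together for most genes, and they spread widely for *Pcdhgb1*, *Pcdhgb4* and *Pcdhga9*, from 0.828 to 54.9 FPKM.

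No clustered protocadherin passed the test between genotypes. Of the 56 members, 55 passed the filter of a mean of 0.5 FPKM over 5 libraries, *Pcdha8* being the exception, and 0 of the 55 had an adjusted p under 0.05 (limma), beside 6 of 13121 genes (0.0457%). The adjusted p of the members was 0.995 or above. At an unadjusted p under 0.05 there were 2 members, *Pcdhb13* and *Pcdhgb1*, both higher in HuD KOs. They are 3.64% of the members tested, beside 3.43% of all genes tested (1.62% higher and 1.81% lower). Over all 6 libraries 0 of 56 passed, beside 4 of 13114 genes (0.0305%), and 2 of 56 (3.57%) had an unadjusted p under 0.05, beside 3.48% of all genes. These were *Pcdhgb1*, which was higher, and *Pcdhb18*, which was lower, where all genes gave 1.63% higher and 1.85% lower.

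On the scale of log2(FPKM + 1), the estimates bounded most differences. Log2 fold changes had 95% intervals within -1 and 1 for 46 of the 55 members, and within -0.5 and 0.5 for 33. By cluster the wider bound held for 13 of 13 alpha, 18 of 21 beta and 15 of 21 gamma genes. The scale itself sets part of this bound, since a gene under 1 FPKM cannot fall by more than 1 even if lost. For such genes the intervals do not exclude large relative changes. Genes of a few FPKM are compressed too, so an interval within -0.5 and 0.5 bounds their relative change less tightly than it reads. With 0.1 added in place of 1, the log2 fold change of *Pcdha1* was -0.44, beside -0.17, and that of *Pcdhb22* was 1.44, beside 0.68. At means of 1.74 and 3.22 FPKM, those of *Pcdhb13* and *Pcdhga6* were 0.59 and 0.48, beside 0.41 and 0.38. The median log2 fold change was 0.05 in the alpha, 0.002 in the beta and 0.09 in the gamma cluster, beside -0.02 over all genes tested. Over 6 libraries these medians were 0.07, -0.05 and 0.01, beside -0.01. The number of members at an unadjusted p under 0.05 depended on single libraries. When control replicate 1, 2 or 3 was left out it was 0 of 53, 6 of 55 or 4 of 54 tested. The share of all genes in these fits was not counted, so these numbers cannot be set beside it.

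**Figure D2:**
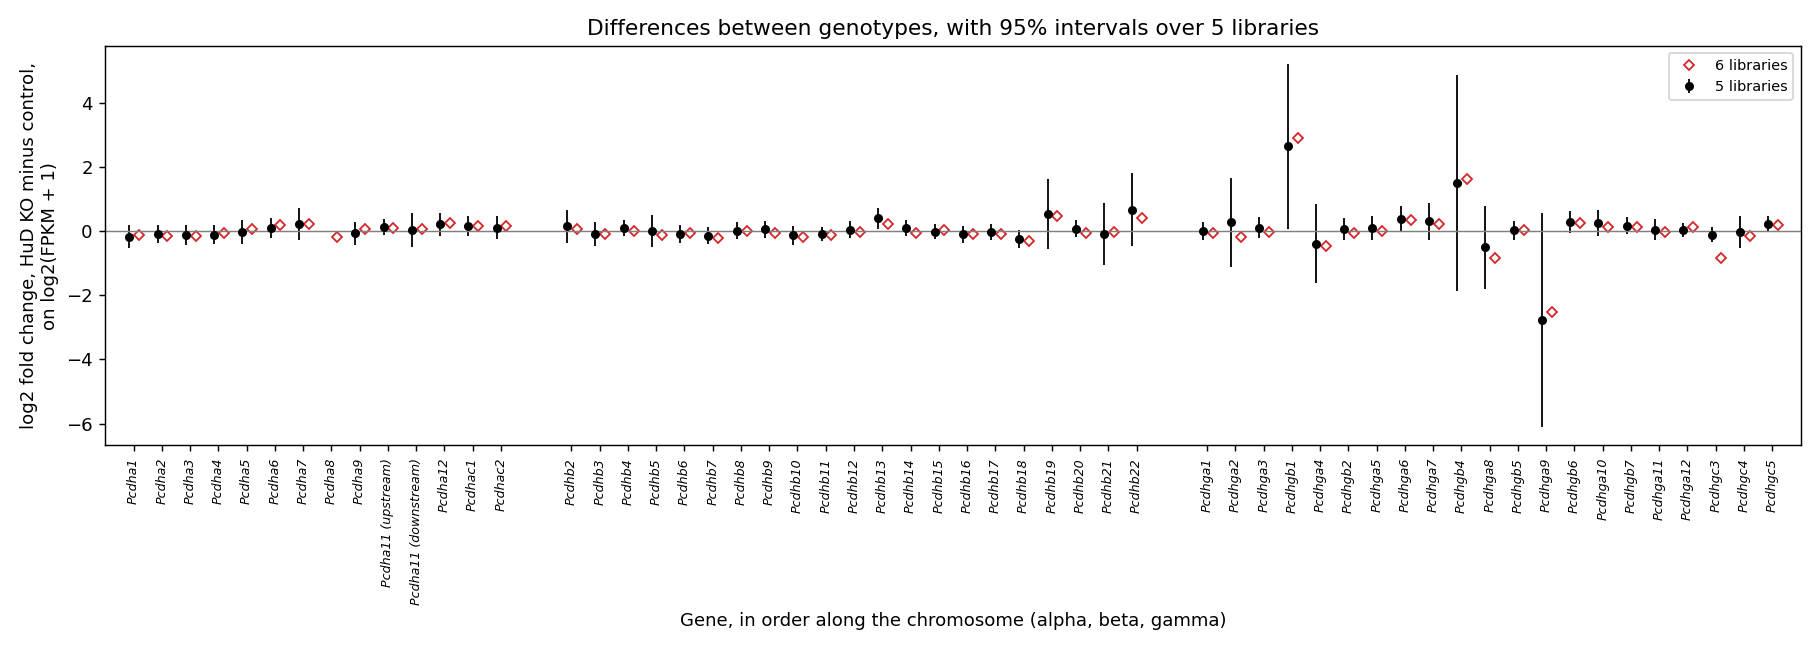
Difference between HuD KO and control on log2(FPKM + 1) for each member in chromosomal order, as the estimate over 5 libraries with its 95% interval (black) and the estimate over 6 libraries (open red). Most estimates lie near 0 with short intervals, while *Pcdhgb1* (2.65), *Pcdhgb4* (1.51) and *Pcdhga9* (-2.78) have the longest intervals.

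Within the alpha cluster, levels differed more between genes than between genotypes. *Pcdhac2*, a C-type isoform needed in the mouse for the tiling of serotonergic axons, was the highest alpha gene in each of the 6 libraries. It was at 5.52, 6.98 and 5.44 FPKM in control replicates 1 to 3 and at 7.30, 7.26 and 5.82 FPKM in HuD KO replicates 1 to 3. The genotypes overlapped, with control replicate 2 above HuD KO replicate 3. *Pcdhac2* made up 30.6% to 36.0% of the summed alpha FPKM of a library, and its log2 fold change was 0.11 (95% interval -0.25 to 0.47). *Pcdhac1*, the other C-type alpha gene, was at 0.946, 1.07 and 0.772 in controls and at 1.31, 1.09 and 1.03 FPKM in HuD KOs, with control replicate 2 above HuD KO replicate 3. Its log2 fold change was 0.17 (95% interval -0.13 to 0.47).

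The other alpha genes had means of 0.523 to 1.92 FPKM, so that *Pcdhac2* stood above all of them. *Pcdha12*, the next in order, was at 1.64, 2.06 and 1.29 in controls and at 2.01, 2.38 and 2.16 FPKM in HuD KOs. Control replicate 2 lay just above HuD KO replicate 1, and the log2 fold change was 0.22 (95% interval -0.14 to 0.58). As a description over 12 genes that share their constant exons, the levels of the alpha genes other than the C-type ones were higher farther along the cluster, with a Spearman rho of 0.59 between start position and mean FPKM. The lowest means were those of *Pcdha8* (0.523 FPKM), *Pcdha1* (0.569 FPKM) and *Pcdha4* (0.570 FPKM), which did not differ beyond their spread. Of the 2904 exonic bases that *Pcdha4* shared with no other member, 494 were free of other GENCODE models on its strand.

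*Pcdha8* was at 0.746, 0.860 and 0.195 in controls and at 0.184, 1.11 and 0.0397 FPKM in HuD KOs. Control replicate 3 and HuD KO replicates 1 and 3 were low, and these are also the libraries with the most choroid plexus marker RNA, whose part was not tested. The gene passed the filter over 6 libraries only, with a log2 fold change of -0.19 (95% interval -0.88 to 0.49). *Pcdha1* was at 0.812, 0.509 and 0.561 in controls and at 0.294, 0.637 and 0.603 FPKM in HuD KOs, with HuD KO replicate 1 alone below the controls. *Pcdha3* was at 0.627, 0.889 and 0.745 in controls and at 0.746, 0.464 and 0.501 FPKM in HuD KOs. Its groups overlapped only through HuD KO replicate 1.

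The upstream *Pcdha11* row was the only alpha row whose genotypes did not overlap. It was at 0.789, 0.895 and 0.912 in controls and at 1.15, 0.944 and 0.943 FPKM in HuD KOs. The highest control and the lowest HuD KO were close to each other. Its log2 fold change was 0.13 (95% interval -0.12 to 0.39; adjusted p = 0.995, limma). The downstream row, at 0.892 to 2.08 FPKM, overlapped between genotypes, and both its lowest and its highest value were in controls.

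Across the family, the genotypes did not overlap over 6 libraries in 6 of 56 members (10.7%), beside 10.1% of all genes tested. Besides the upstream *Pcdha11* row, *Pcdhga6*, *Pcdhgb6* and *Pcdhgc5* were higher in all 3 HuD KOs, and *Pcdhb11* and *Pcdhb18* were lower. That is 7.14% higher and 3.57% lower, where all genes tested gave 4.43% and 5.70%. The share of non-overlapping members was thus close to that of all genes.

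**Figure D3:**
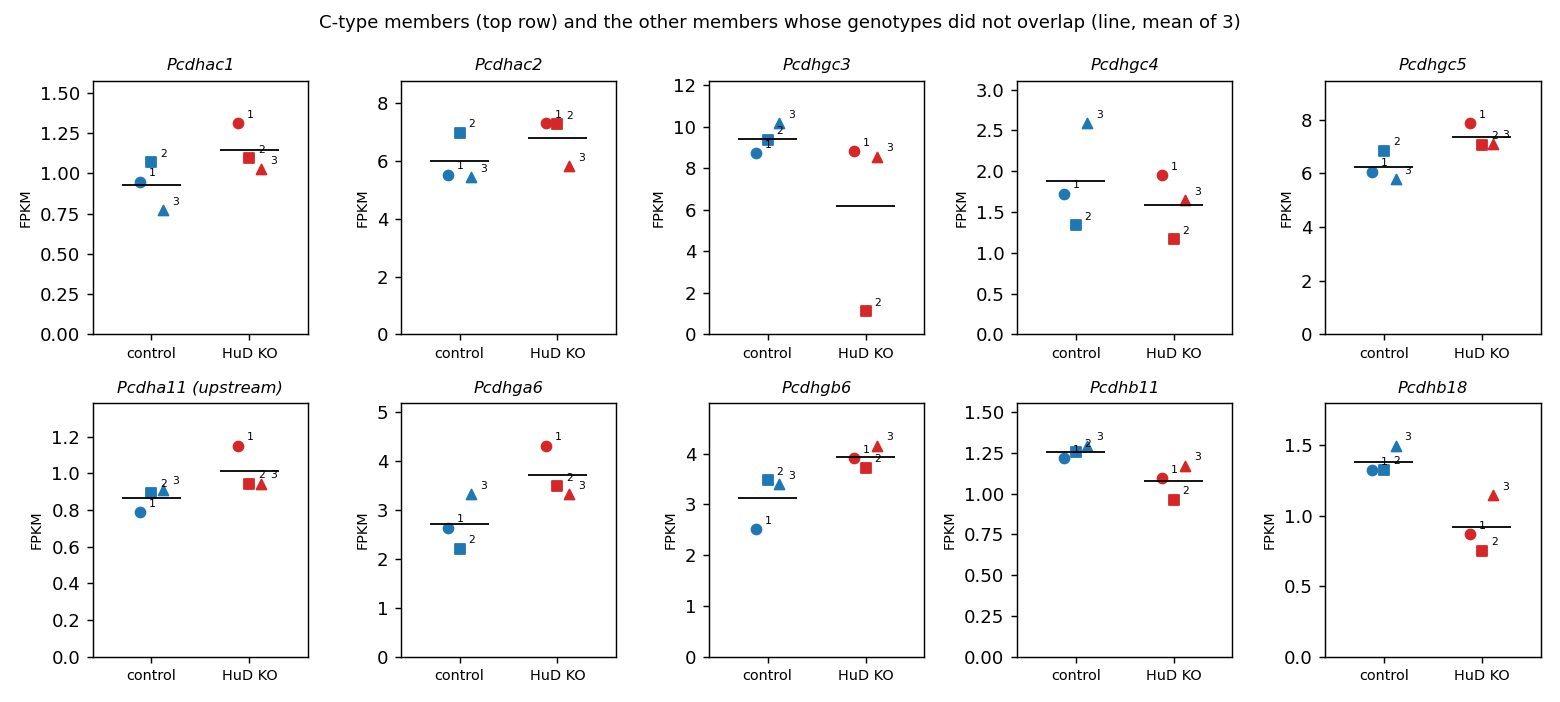
FPKM in each library, numbered by replicate, of the 5 C-type members (top row) and of the other 5 members whose genotypes did not overlap (bottom row), with a line at the mean of 3. *Pcdhgc3* is at 1.11 FPKM in HuD KO replicate 2 and at 8.55 to 10.2 FPKM elsewhere, and *Pcdhb18* lies lower in every HuD KO.

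The beta genes gave the steadiest values of the family. Their median coefficient of variation over 6 libraries was 16.5%, beside 21.5% for alpha, 23.2% for gamma and 15.9% for all genes. *Pcdhb20* had the highest mean, 3.98 FPKM, and was followed by *Pcdhb17* (3.80 FPKM) and *Pcdhb9* (3.72 FPKM). These 3 did not differ beyond their spread (SD 0.607, 0.342 and 0.461 FPKM, n = 6), and *Pcdhb17* or *Pcdhb20* led the cluster in each library with 10.5% to 12.5% of its sum. *Pcdhb20* was at 3.98, 4.01 and 4.14 in controls and at 3.87, 2.99 and 4.89 FPKM in HuD KOs. The HuD KO values lay on both sides of the controls, and the log2 fold change was 0.09 over 5 libraries and -0.06 over 6.

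*Pcdhb18* was the beta gene of smallest p over 6 libraries. It was at 1.32, 1.32 and 1.49 in controls and at 0.869, 0.751 and 1.15 FPKM in HuD KOs. All 3 HuD KOs were below all 3 controls. The log2 fold change was -0.25 over 5 libraries (95% interval -0.52 to 0.03; unadjusted p = 0.0673) and -0.31 over 6 (95% interval -0.58 to -0.04; unadjusted p = 0.0285), and the adjusted p in limma was 0.995 and 0.871. *Pcdhb11* also did not overlap, with 1.22, 1.25 and 1.29 FPKM in controls, against 1.09, 0.963 and 1.17 FPKM in HuD KOs. Its log2 fold change was -0.08 (95% interval -0.31 to 0.15). *Pcdhb7* was at 2.62, 2.19 and 2.46 in controls and at 2.27, 1.77 and 1.94 FPKM in HuD KOs, with HuD KO replicate 1 above control replicate 2.

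*Pcdhb13* was the beta gene of smallest p over 5 libraries. Its level was 1.25, 1.62 and 1.61 FPKM in controls, against 2.60, 1.34 and 2.01 FPKM in HuD KOs. HuD KO replicates 1 and 3 were above every control, and HuD KO replicate 2 was within their range. The log2 fold change was 0.41 (95% interval 0.08 to 0.73; unadjusted p = 0.0236, adjusted p = 0.995, limma), and 0.24 over 6 libraries (95% interval -0.16 to 0.65).

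At the end of the cluster, *Pcdhb21* and *Pcdhb22*, whose models overlap, each varied widely between libraries. *Pcdhb21*, the lowest beta gene, was at 0.791 and 0.823 FPKM in control replicates 1 and 3, at 0.954 and 0.564 FPKM in HuD KO replicates 1 and 2, and listed at 0 in control replicate 2 and HuD KO replicate 3. *Pcdhb22* was at 0.248, 2.41 and 0.317 in controls and at 1.98, 0.619 and 1.71 FPKM in HuD KOs. The libraries with *Pcdhb21* at 0 were thus among the 3 with the most *Pcdhb22*, and HuD KO replicate 1 had both. The log2 fold change of *Pcdhb22* was 0.68 (95% interval -0.45 to 1.81), and it ranged from 0.42 without control replicate 1 to 1.15 without control replicate 2 (unadjusted p = 0.000339, adjusted p = 0.247, limma). Among the genes described after their values were seen, *Pcdhb19* was listed at 0 in control replicate 1 and was at 1.43 to 1.83 FPKM in the other 5 libraries.

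In the gamma cluster, 3 of the 4 models with the earlier end reached levels in some libraries that no other member reached. *Pcdhga9* was at 50.5 and 47.1 FPKM in control replicates 1 and 3, at 1.62 FPKM in control replicate 2, and at 2.06, 3.73 and 1.42 FPKM in the HuD KOs. *Pcdhgb1* was at 1.18, 14.3 and 1.44 in controls and at 12.2, 46.7 and 54.9 FPKM in HuD KOs. *Pcdhgb4* was at 5.61, 0.840 and 1.53 in controls and at 42.6, 10.4 and 0.828 FPKM in HuD KOs. Each of these genes thus had libraries under 2 FPKM beside others above 40 FPKM, and the libraries in which they were highest differed between them. *Pcdhga2*, added here because it has the same end, was at 2.22, 4.32 and 8.20 in controls and at 3.13, 1.54 and 9.35 FPKM in HuD KOs, a narrower range.

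The ratio of the highest to the lowest library was 46.5 for *Pcdhgb1* (37680233 to 37841870), 51.4 for *Pcdhgb4* (37720369 to 37841870), 35.6 for *Pcdhga9* (37736936 to 37841870) and 6.07 for *Pcdhga2* (37668953 to 37841870). Among the 17 models with the common end it was 44.1 for *Pcdhga8*, 12.3 for *Pcdhga4* and 9.13 for *Pcdhgc3*, which had libraries far below the rest, and 2.22 or less for the others. The highest library exceeded 3 times the median library in 3 of these 4 models and in 0 of the other 17 gamma models. All genes tested did so in 1.59%. The first 3 also had the highest mean levels of the family, at 21.8, 10.3 and 17.7 FPKM.

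Their sum was steadier than any of them. It was 59.5, 21.1 and 58.2 FPKM in control replicates 1 to 3 and 60.0, 62.3 and 66.5 FPKM in HuD KO replicates 1 to 3. Control replicate 2 was low, and the other 5 libraries were within 58.2 to 66.5 FPKM. The genotypes did not overlap, but the lowest HuD KO lay just above the highest control. In those 5 libraries this amount was carried mostly by *Pcdhga9*, by *Pcdhgb4* or by *Pcdhgb1*. The gene with the most FPKM of the cluster was *Pcdhga9* in control replicates 1 and 3, *Pcdhgb4* in HuD KO replicate 1, and *Pcdhgb1* in control replicate 2 as well as HuD KO replicates 2 and 3. *Pcdhgb8*, another GENCODE model with the earlier end and a polymorphic pseudogene, has no row among the deposited values and could not be analysed.

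**Figure D4:**
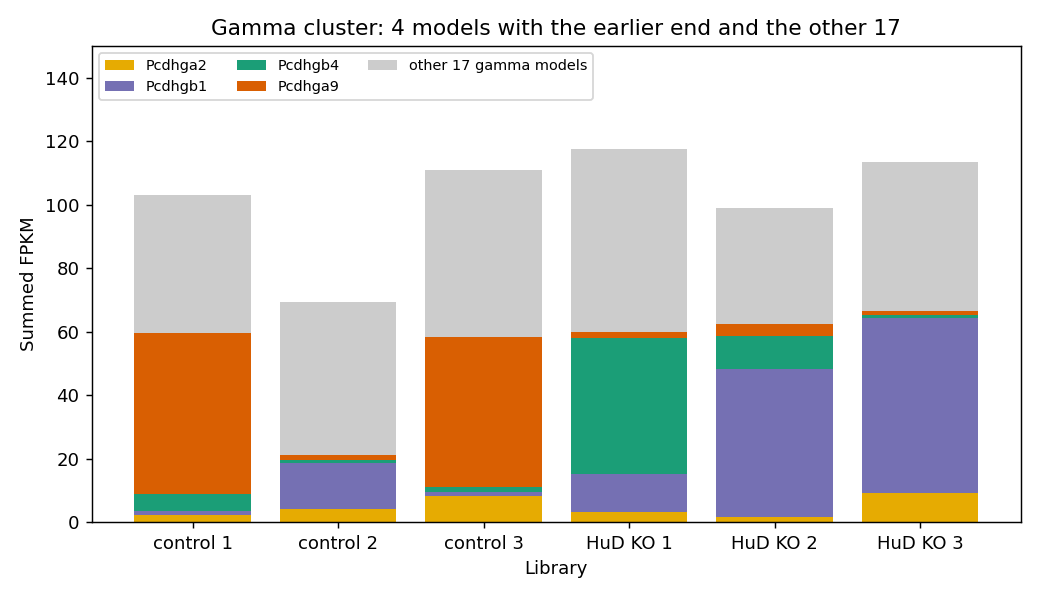
Summed FPKM of the gamma cluster in each library, split into the 4 models that end 3 bases earlier (colours) and the other 17 (grey). The 4 models together reach 58.2 to 66.5 FPKM in 5 libraries and 21.1 FPKM in control replicate 2, and the model that carries most of it changes from library to library.

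The tests of these genes reflected that spread. *Pcdhgb1* had a log2 fold change of 2.65 over 5 libraries (95% interval 0.08 to 5.22; unadjusted p = 0.0455) and of 2.92 over 6 (95% interval 0.93 to 4.91; unadjusted p = 0.0103), with an adjusted p of 0.995 and 0.871 in limma. Control replicate 2 (14.3 FPKM) lay above HuD KO replicate 1 (12.2 FPKM), so the genotypes overlapped. *Pcdhga9* had a log2 fold change of -2.78 (95% interval -6.12 to 0.56; adjusted p = 0.995, limma). Without control replicate 2, whose level was that of the HuD KOs, *Pcdhga9* passed, with a log2 fold change of -4.19 and an adjusted p of 0.0087 in limma. In that fit 6 of 13130 genes passed. *Pcdhga9* was the only member to pass under any alternative that was run. *Pcdhgb4* had a log2 fold change of 1.51 (95% interval -1.86 to 4.88). It turned to -0.78 without HuD KO replicate 1, where HuD KO replicate 3 was the only HuD KO library.

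A few gamma models with the common end also had libraries far below the rest. They are given here because of their values. *Pcdhga8*, whose variable exon is overlapped by a transcript of *Pcdhgb4*, was at 1.76, 2.25 and 2.23 in controls and at 3.12, 0.0707 and 0.133 FPKM in HuD KOs. *Pcdhga4*, which is overlapped by *Pcdhgb1* over more bases, was at 1.76, 0.977 and 2.76 in controls and at 2.54, 0.869 and 0.224 FPKM in HuD KOs. *Pcdhga4* shared 3157 exonic bases with other members and *Pcdhga8* 2227, where each other model with the common end shared 2119. *Pcdhga4* was lowest in the 3 libraries where *Pcdhgb1* was highest. *Pcdhga8* did not mirror *Pcdhgb4* in this way, as both were highest in HuD KO replicate 1 and both were low in HuD KO replicate 3. The overlap of this pair is much the smaller, so the pairs are not alike. Neither passed the test, with log2 fold changes of -0.39 (95% interval -1.63 to 0.84) for *Pcdhga4* and -0.51 (95% interval -1.80 to 0.79) for *Pcdhga8*. These values depended on HuD KO replicate 1. Without it, HuD KO replicate 3 alone stood against the controls, and the log2 fold changes were -1.16 for *Pcdhga4* and -1.44 for *Pcdhga8*. Over 6 libraries the log2 fold change of *Pcdhga8* was -0.84.

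The remaining A and B isoforms of the gamma cluster had no library so far from the others. *Pcdhga6* was at 2.64, 2.21 and 3.32 in controls and at 4.32, 3.49 and 3.32 FPKM in HuD KOs. The highest control and the lowest HuD KO were nearly equal, and the log2 fold change was 0.38 (95% interval -0.04 to 0.79; unadjusted p = 0.067). *Pcdhgb6* was at 2.51, 3.47 and 3.39 in controls and at 3.91, 3.72 and 4.15 FPKM in HuD KOs. All HuD KOs were above all controls, with a log2 fold change of 0.29 (95% interval -0.04 to 0.63; unadjusted p = 0.0761). *Pcdhgb5*, the lowest gamma gene, was at 0.763, 0.557 and 0.913 in controls and at 0.776, 0.801 and 0.760 FPKM in HuD KOs, and the HuD KOs lay inside the range of the controls. The other A and B isoforms with the common end had means of 1.08 to 4.68 FPKM, *Pcdhga11* being the highest of them.

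Among the C-type gamma isoforms, *Pcdhgc3* and *Pcdhgc5* were abundant and *Pcdhgc4* was not. *Pcdhgc5*, which in the rat binds GABA-A receptors at synapses, was at 6.06, 6.85 and 5.79 in controls and at 7.86, 7.07 and 7.11 FPKM in HuD KOs. All HuD KOs were above all controls. The log2 fold change was 0.23 (95% interval -0.03 to 0.49; unadjusted p = 0.0688, adjusted p = 0.995, limma). With a coefficient of variation of 11.2% it was the steadiest gamma gene.

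*Pcdhgc3*, which in the mouse promotes the branching of cortical dendrites, was at 8.74, 9.37 and 10.2 in controls and at 8.81, 1.11 and 8.55 FPKM in HuD KOs. HuD KO replicate 2 was far below the other 5 libraries. The log2 fold change was -0.10 without that library (95% interval -0.33 to 0.13) and -0.84 with it (95% interval -2.15 to 0.47). *Pcdhgc4*, the isoform that the survival of mouse cortical interneurons depends on, was at 1.72, 1.34 and 2.59 in controls and at 1.95, 1.16 and 1.65 FPKM in HuD KOs. Its groups overlapped, with a log2 fold change of -0.02 (95% interval -0.51 to 0.47). The 8 interneuron markers summed to 482 to 541 FPKM in controls, against 510 to 742 FPKM in HuD KOs.

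Sums over a cluster may depend less on how reads were split between its models, though how shared reads were counted is unknown. The alpha sum was 18.04, 21.4 and 16.7 FPKM in controls, against 20.3, 22.9 and 18.6 FPKM in HuD KOs. The beta sum was 34.3, 39.3 and 35.2 FPKM in controls, against 37.4, 29.5 and 39.0 FPKM in HuD KOs. Both overlapped between genotypes, and HuD KO replicate 2 had the highest alpha and the lowest beta sum of the 6. The gamma sum was 103, 69.4 and 111 FPKM in controls, against 118, 99.0 and 114 FPKM in HuD KOs, and control replicate 2 was the lowest.

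Over 5 libraries the ratio of the HuD KO to the control mean was 1.04 for alpha, 1.05 for beta and 1.22 for gamma, and over 6 it was 1.10, 0.973 and 1.16. For the 17 gamma models with the common end the ratio was 1.08 over 5 libraries and 0.977 over 6. For the 4 with the earlier end it was 1.37 over 5 libraries, and 1.07 without control replicate 2. The control sums were 18.7 ± 2.42 FPKM (SD, n = 3) for alpha, 36.3 ± 2.62 FPKM for beta and 94.5 ± 22.1 FPKM for gamma. The HuD KO sums were 19.5 ± 1.21, 38.2 ± 1.19 and 116 ± 2.87 FPKM (SD, n = 2). Differences of the means were smaller than the SD of the 3 controls in each cluster, and this rested on control replicate 2. Without it the control sums were 17.4 ± 0.949, 34.8 ± 0.641 and 107 ± 5.56 FPKM (SD, n = 2), and the HuD KO means were higher by 2.08, 3.41 and 8.53 FPKM, more than these SDs. An SD of 2 libraries measures the spread between mice poorly, so no rise is read from these differences. With HuD KO replicate 2 included, the HuD KO sums were 20.6 ± 2.15, 35.3 ± 5.09 and 110 ± 9.76 FPKM (SD, n = 3).

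**Figure D5:**
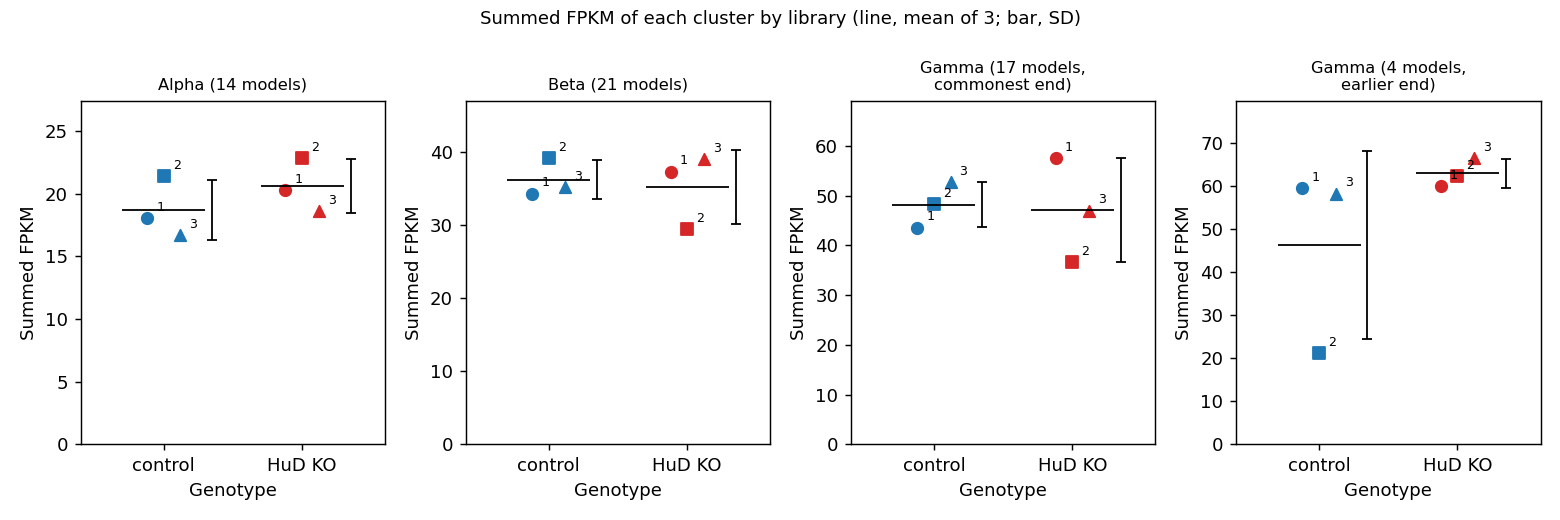
Summed FPKM of the alpha cluster, the beta cluster and the gamma models with the common and with the earlier end, in each library (numbered by replicate), with the mean of 3 (line) and SD (bar) per genotype. Genotypes overlap in the alpha, beta and common-end gamma sums. In the earlier-end gamma sum they do not, though the lowest HuD KO (60.0 FPKM) is just above the highest control (59.5 FPKM), and control replicate 2 (21.1 FPKM) is far below the others.

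The genes around the clusters did not pass the test between genotypes. Of the 23 genes in the table within 500 kb on either side or between the clusters, 1 was higher and 1 lower at an unadjusted p under 0.05, and 0 had an adjusted p under 0.05 (limma). The share of all genes was 1.62% higher and 1.81% lower. *Wdr55*, which encodes a WD-repeat protein of the nucleolus, was at 5.97, 5.75 and 5.66 in controls and at 7.41, 7.29 and 6.72 FPKM in HuD KOs. The groups did not overlap, and the log2 fold change was 0.25 (95% interval 0.03 to 0.46). *Cd14*, a lipopolysaccharide coreceptor of myeloid cells, was at 1.24 to 1.49 in controls and at 0.949, 2.03 and 0.976 FPKM in HuD KOs. HuD KO replicate 2 was above all controls and the other HuD KOs were below them. Besides *Wdr55*, the genotypes did not overlap over 6 libraries in *Diaph1* and *Pcdh1*, which were higher in HuD KOs, and *Rnf14*, which was lower. Of all genes tested, 10.1% did not overlap.

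The protocadherins outside the clusters did not pass the test either. Of 11 detected, 0 had an unadjusted p under 0.05 over 5 libraries, and their median log2 fold change was -0.02. Their levels ran from *Pcdh15* (0.393 to 0.877 FPKM) to *Pcdh1* (18.6 to 31.7 FPKM), and *Pcdh1* was higher in all 3 HuD KOs than in the controls. *Pcdh18* had the smallest p, with 1.59, 1.37 and 2.33 FPKM in controls, against 1.10, 1.00 and 1.22 FPKM in HuD KOs. All HuD KOs were below all controls. The log2 fold change was -0.34 over 5 libraries (95% interval -0.76 to 0.07) and -0.38 over 6 (unadjusted p = 0.0367).

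Of 17 cadherins of the classical and related types, 2 were higher and 1 lower at an unadjusted p under 0.05, beside 1.62% and 1.81% of all genes tested, and 0 had an adjusted p under 0.05 (limma). *Cdh11*, a type II cadherin, was at 8.33, 9.07 and 7.15 in controls and at 11.6, 7.34 and 11.4 FPKM in HuD KOs. *Cdh8*, also of type II, was at 4.76, 5.25 and 5.27 in controls and at 6.80, 4.34 and 6.28 FPKM in HuD KOs. For both, HuD KO replicates 1 and 3 were above the controls and HuD KO replicate 2 was not. The log2 fold changes over 5 libraries were 0.45 (95% interval 0.17 to 0.73) and 0.31 (95% interval 0.08 to 0.54). *Cdh19* was at 2.68, 2.36 and 3.05 in controls and at 2.08, 2.49 and 1.88 FPKM in HuD KOs, and its log2 fold change was -0.31. Over 6 libraries, 0 were higher and 2 lower at an unadjusted p under 0.05 (limma), beside 1.63% and 1.85% of all genes tested. The 2 were *Cdh1* and *Cdh7*, whose genotypes did not overlap.

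Regulators of the clusters did not pass the test. Of 12 genes for CTCF and cohesin and 16 for DNA methylation and silencing, 0 had an unadjusted p under 0.05, with median log2 fold changes of 0.01 and -0.06. The smallest p in the first list was that of *Wapl*, which encodes the factor that releases cohesin from DNA, at 8.15, 9.94 and 10.8 FPKM in controls, against 11.1, 8.04 and 10.8 FPKM in HuD KOs. In the second it was that of *Tet2*, which encodes an enzyme that oxidises methylcytosine, at 3.26, 2.68 and 2.81 FPKM in controls, against 2.68, 1.84 and 2.16 FPKM in HuD KOs. The values of *Wapl* overlapped between genotypes, and those of *Tet2* were separated by less than 0.01 FPKM. Of 8 genes for the proteases that cleave protocadherins, ADAM10 and gamma-secretase, 0 had an unadjusted p under 0.05. The smallest p was that of *Psenen*, which encodes a gamma-secretase subunit, at 18.4, 17.95 and 17.8 FPKM in controls, against 18.7, 28.7 and 21.2 FPKM in HuD KOs. All HuD KOs were above all controls, HuD KO replicate 1 by the least.

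Among 15 partners, which are intracellular proteins except for the adhesion proteins of *Nlgn1* and *Nlgn2*, 3 were higher at an unadjusted p under 0.05 and 0 lower, beside 1.62% and 1.81% of all genes tested, with 0 at an adjusted p under 0.05 (limma). Their median log2 fold change was 0.16, beside -0.02 over all genes. *Ptk2b* encodes PYK2, a kinase that the cytoplasmic parts of alpha and gamma protocadherins bind and inhibit. It was at 46.8, 52.7 and 47.0 in controls and at 65.5, 76.0 and 60.9 FPKM in HuD KOs. All HuD KOs were above all controls, and the log2 fold change was 0.37 (95% interval 0.15 to 0.59; unadjusted p = 0.00675, adjusted p = 0.995, limma).

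*Wasf1* and *Nckap1* encode subunits of the WAVE complex, which binds the constant part of alpha protocadherins and drives actin assembly. *Wasf1* was at 80.5, 94.7 and 85.2 in controls and at 102, 79.7 and 112 FPKM in HuD KOs, and *Nckap1* was at 113, 121 and 118 in controls and at 137, 95.4 and 134 FPKM in HuD KOs. For both, HuD KO replicates 1 and 3 were above the controls and HuD KO replicate 2 was below them. Over 5 libraries the log2 fold changes were 0.30 and 0.21, and over 6 they were 0.16 and 0.04. The summed excitatory neuron markers, given above, were higher in HuD KOs as well, and their part in these values was not tested.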

How the data were processed

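Neocortices of 3 control and 3 HuD KO male mice were sequenced. Per the study's methods, read quality was checked in FastQC 0.11.5, adapters were trimmed, and STAR 2.7.3a served for alignment to mm10. The authors deposited FPKM per gene and library, and the sources used here do not give the program behind these values. The authors' own comparison columns (mean log2 values, log2 fold changes, fold changes, p and q) were not used, and 1 line of sums that names no gene was left out. Totals of FPKM are not depths. Genes whose mean reached 0.5 FPKM were compared on log2(FPKM + 1) by limma 3.58.1 under R 4.3.3 (eBayes with a trend, Benjamini-Hochberg adjustment), after the code was tested on simulated data. Tables were handled in Python 3.11.15 (pandas 2.3.3) and plotted with matplotlib 3.10.9.

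The members and gene lists were chosen with earlier results of these data known. Named were, per cluster, the highest, the lowest and the 2 of smallest p on either side, the C-type members, members at an unadjusted p under 0.05, members without overlap, and members whose highest library exceeded 3 times the median. From each related list those at an unadjusted p under 0.05 (at most 4) or the 1 of smallest p were named. Others were added after their values were seen. Other settings were the inclusion of all 6 libraries, 0.1 as pseudocount, the filter dropped or raised to 2 FPKM, scaling by medians or quantiles, variances without a trend, the replicate number as a term, the mean of log2(FPKM + 1) in place of the sum, each library left out and, after seeing the data, the split of the gamma sum.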

Additional observations from a re-analysis of the deposited data

How the results depend on the processing

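No member had an adjusted p under 0.05 in limma under any alternative with at least 2 libraries per genotype, except without control replicate 2. There 1 of 55 members passed, beside 6 of 13130 genes. Members at an unadjusted p under 0.05 numbered 1 of 20 with a filter of 2 FPKM, and 0 to 6 when each control library was left out, beside 2 of 55. Genes of the related lists at that level numbered 2 to 9 when each control library was left out, beside 6 of 79. The shares of all genes at that level in these alternatives were not counted. All genes passing numbered 2 with a pseudocount of 0.1, and 2 to 11 without single control libraries (2 without control replicate 1, 11 without control replicate 3), beside 6. Fits without HuD KO replicate 1 or 3 hold a single HuD KO library, so only effect sizes are read from them. The median log2 fold change of the beta genes was -0.050 over 6 libraries and -0.049 to 0.047 without single libraries. That of the gamma genes was 0.27 with a filter of 2 FPKM (13 genes). The ratio of summed beta FPKM was 0.973 over 6 libraries, beside 1.05. The cause was not tested.

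Of the fold changes of named members, those that turned sign were, over 6 libraries, *Pcdhb20* (-0.056), with quantile normalization *Pcdhgc4* (0.021), and, without single libraries, *Pcdhac2* (-0.027 to 0.26), *Pcdhb20* (-0.050 to 0.22), *Pcdhb21* (-0.37 to 0.40), *Pcdhgb4* (-0.78 to 3.80), *Pcdhgb5* (-0.055 to 0.094) and *Pcdhgc4* (-0.16 to 0.15).

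Correlations of deviations between libraries of the same replicate number were -0.12, 0.18 and 0.04, so the numbers were not treated as pairs. With the replicate number as a block over 6 libraries, 3 of 13114 genes and 0 of 56 members passed. At an unadjusted p under 0.05 there were 4 members, and the share of all genes was not counted. The beta median was -0.050, and *Pcdhb20* had a log2 fold change of -0.056. With 2 or 3 mice per genotype, the median standard error of a member's log2 fold change was 0.13. The depth is unknown, so what counting error adds for genes near 1 FPKM cannot be given.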
